A study of Homo sapiens with 6 samples.

Results

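AP-1 is a family of transcription factors that work as pairs. Its members were here the FOS proteins (FOS, FOSB, FOSL1 and FOSL2), the JUN proteins (JUN, JUNB and JUND) and the BATF proteins BATF and BATF3. Within the family the 9 genes were selected on their symbols alone, but the family itself was chosen with earlier results of these data known. The array held 25 probe sets for the 9 genes among 18244 genes with a probe set. Each gene was read by the probe set with the highest mean log2 over the 6 arrays, with its other probe sets as a check. All 9 genes passed the filter on dim probe sets, a mean above 33.8 intensity, as did 12198 genes in all. The fall of FOS at 24 hours was already known when the family was chosen, so it is given below as a description, with no test. The other members were tested, but as part of a family not chosen blind to these data.

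The cells were P493-6, a human B-cell lymphoma line grown in medium with FBS. All 3 groups carry a c-Myc transgene that tetracycline holds off, and a group differs from another by the time since that hold was lifted: 0 hours (low-Myc), 1 hour (mid-Myc) or 24 hours (high-Myc), with 2 arrays each. The arrays are biological duplicates per the design text. This is a single engineered line, and no array of cells kept without the transgene, or kept repressed for the same hours, was analysed here. For mid-Myc, one protocol field gives 0 hours and another 1 hour, and 1 hour was used because that group is described as having moderate c-Myc. Mid-Myc samples are numbered apart from the other samples, so an effect of a separate run and of 1 hour of release cannot be told apart.

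A FOS protein cannot pair with itself and binds DNA with a JUN partner, whereas JUN proteins can also pair among themselves. FOS, FOSB, JUN and JUNB are immediate early genes: their RNA rises within minutes of a growth signal, through factors already present in the cell, and is short-lived. BATF and BATF3 lack the activating region of FOS, pair with JUN proteins and bind together with the interferon regulatory factors IRF4 and IRF8, which is how AP-1 acts at many lymphocyte genes. All share a basic region that contacts DNA and a leucine zipper that forms the pair, the bZIP fold.

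The genes lie on chromosomes 1 (JUN, BATF3), 2 (FOSL2), 11 (FOSL1), 14 (FOS, BATF) and 19 (JUNB, JUND, FOSB) of GRCh38.p14. RefSeq promoters on that build were matched for 7 of the 9 genes, and not for FOSL1 and BATF3. The 250 bases before the transcription start are shown for the immediate early genes, 4 promoters whose RNAs were highest at 0 or 1 hour, and for BATF, whose RNA was highest at 24 hours. They run 5′ to 3′ on the gene's strand. Capitals mark TGACG (the core of the cAMP response element) and TGANNTCA (the palindrome TGACGTCA of that element with any 2 middle bases). They also mark TGAGTCA (the AP-1 site, which TGANNTCA does not match) and the TATA box TATAAA. Each was searched on both strands. TGACG lies within some TGANNTCA matches. In order, the windows are chr14:75278578-75278827 (plus strand), chr19:45467746-45467995 (plus strand), chr1:58784048-58784297 (minus strand), chr19:12791236-12791485 (plus strand) and chr14:75522219-75522468 (plus strand).
FOS: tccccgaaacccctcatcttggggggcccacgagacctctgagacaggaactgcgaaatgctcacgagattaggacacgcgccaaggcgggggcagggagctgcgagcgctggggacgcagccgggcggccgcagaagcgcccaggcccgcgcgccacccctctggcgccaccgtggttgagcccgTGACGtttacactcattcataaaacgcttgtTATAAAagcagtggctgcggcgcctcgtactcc
FOSB: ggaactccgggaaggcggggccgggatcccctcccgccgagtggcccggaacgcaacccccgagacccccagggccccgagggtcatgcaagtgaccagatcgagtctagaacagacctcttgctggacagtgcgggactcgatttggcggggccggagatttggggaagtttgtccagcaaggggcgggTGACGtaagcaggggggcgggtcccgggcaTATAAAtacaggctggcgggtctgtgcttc
JUN: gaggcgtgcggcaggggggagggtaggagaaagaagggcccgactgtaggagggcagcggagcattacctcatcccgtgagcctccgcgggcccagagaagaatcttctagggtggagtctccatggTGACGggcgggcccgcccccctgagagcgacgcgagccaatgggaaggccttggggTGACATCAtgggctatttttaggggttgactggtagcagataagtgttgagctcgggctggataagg
JUNB: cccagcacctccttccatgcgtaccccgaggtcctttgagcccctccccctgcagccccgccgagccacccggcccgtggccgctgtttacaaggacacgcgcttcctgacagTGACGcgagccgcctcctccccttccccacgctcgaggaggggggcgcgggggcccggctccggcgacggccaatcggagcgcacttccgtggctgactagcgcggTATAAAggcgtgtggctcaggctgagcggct
BATF: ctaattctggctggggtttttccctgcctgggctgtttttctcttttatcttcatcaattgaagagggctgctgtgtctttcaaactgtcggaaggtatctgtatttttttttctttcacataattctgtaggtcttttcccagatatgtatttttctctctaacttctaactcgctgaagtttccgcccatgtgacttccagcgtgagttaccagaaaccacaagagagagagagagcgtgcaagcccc

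The FOS and FOSB promoters have the same 2 elements at nearly the same places. In FOS, TGACG lies at -64 to -60 and TATAAA at -33 to -28 from the start. In FOSB, TGACG lies at -60 to -56 and TATAAA at -30 to -25. JUNB has TATAAA at -31 to -26 and TGACG further up, at -137 to -133. JUN has no TATAAA in this window, and carries TGACATCA at -67 to -60, a match to TGANNTCA, and TGACG at -123 to -119. BATF has none of these letters, so its sequence holds no capitals. TGACG was found in 6 of the 7 matched promoters, against 21.2% of all 35116 promoters of this length, and TATAAA in 3 of 7, against 10.7%. TGANNTCA was found in 2 (JUN and JUND), against 10.1%, and the AP-1 site TGAGTCA in none of the 7, against 4.2%. The E-box CACGTG, the sequence that c-Myc binds with its partner MAX, was in none of the 7, against 6.34%. The CArG box, bound by serum response factor, was also in none, against 1.16%. These are matches of letters in a short window and say nothing of sites outside it.

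Levels were compared on 2 log2 scales. ERCC synthetic RNAs had been added by cell number, and the per-cell scale subtracts from each array a curve through its ERCC probe sets. The equal-median scale sets the median human probe set of each array to the same value, as if every cell held the same amount of RNA. The middle 28 ERCC probe sets were 2.58-fold dimmer in high-Myc than in low-Myc and 1.32-fold dimmer in mid-Myc than in low-Myc. Per cell, the median of all tested genes was therefore higher by 0.98 log2 at 24 hours and by 0.30 at 1 hour, whereas on the equal-median scale it was 0.054 and 0.091. A gene that rose per cell by less than these medians rose by less than the typical gene. MYC, the released gene, was read by a single bright probe set at a mean of 10375 intensity at 0 hours, 9986 at 1 hour and 11934 at 24 hours. Its differences from low-Myc were 0.13 log2 per cell at 1 hour and 0.96 at 24 hours, and 0.095 and 0.34 on the equal-median scale. All 7 B-cell markers matched (BLK, CD22, CD74, CD79A, CD79B, MS4A1 and PAX5) were above the second brightest of the 23 background control probe sets, at 194.2 intensity. Their summed intensity was 23612 to 23751 in low-Myc, 24552 to 25366 in mid-Myc and 15474 to 15634 in high-Myc. None of 9 T and NK cell markers was above that control. Of 5 monocyte markers only LYZ was, and their summed intensity was 521.2 to 536.7 in high-Myc, 1451 to 1468 in low-Myc and 1515 to 1565 in mid-Myc. The part of this difference in the results below was not tested. In such bulk samples, fewer cells with a transcript and less transcript per cell cannot be told apart.

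After 24 hours of c-Myc release members differed in direction, as did all tested genes on the equal-median scale. The 2 BATF genes were the only members called higher on both scales. FOSB was the only one called lower on both among the 8 members other than FOS, whose own fall is described further on without a test. The FOSB calls hold for the probe set used. Its second probe set was called higher per cell at 24 hours (0.94), not called on the equal-median scale, and called on neither scale at 1 hour. JUN and JUNB fell against the other genes of their arrays but not per cell. At 1 hour FOSB, JUN and JUNB were higher on both scales while FOS was lower, and FOSL1, FOSL2 and BATF3 were called on neither. In numbers, and with FOS left out of the counts at 24 hours, high-Myc against low-Myc called 5 of 8 members higher and 1 lower per cell, where 91% of all tested genes were higher and 2.47% lower. On the equal-median scale it called 2 higher and 4 lower, against 37.7% and 26% of all genes. The median of all 9 members, FOS included, differed by 0.36 log2 per cell and by -0.42 on the equal-median scale. The known fall of FOS is thus part of this median. Mid-Myc against low-Myc called 5 of 9 members higher and 1 lower per cell, against 62.7% and 0.672% of all genes. On the equal-median scale it called 3 higher and 1 lower, against 25.7% and 3.39%. The median member differed by 0.30 per cell, the same as the median gene, and by 0.091 on the equal-median scale. High-Myc against mid-Myc, again without FOS, called 4 higher and 3 lower per cell, against 81.8% and 6.48% of all genes, and 2 higher and 3 lower on the equal-median scale, against 33.3% and 30.9%. In that comparison the median member differed by 0.11 per cell, where the median gene differed by 0.72, and by -0.41 on the equal-median scale. The comparisons share groups, so they are not independent of each other.

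**Figure D1:**
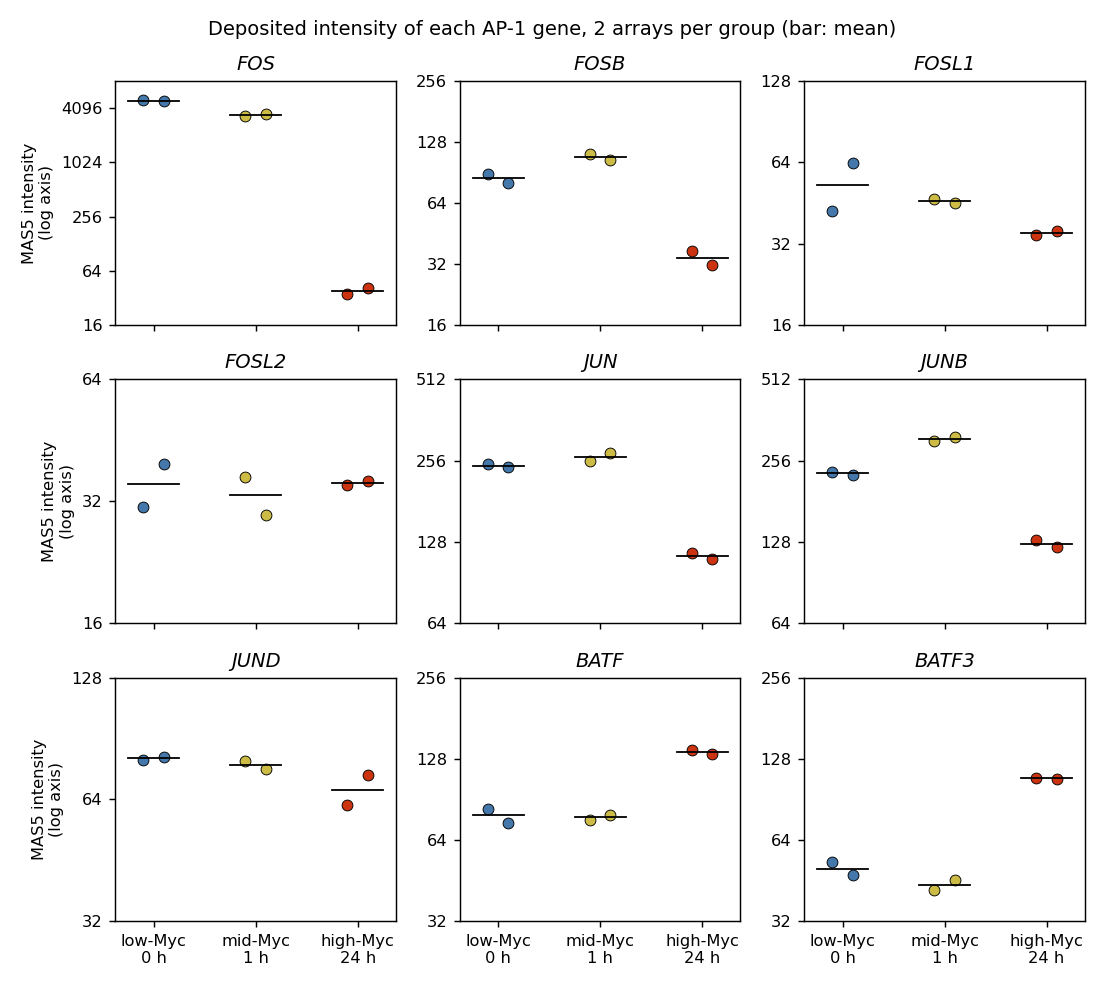
Deposited MAS5 intensity (log axis) of each of the 9 AP-1 genes in the low-Myc, mid-Myc and high-Myc arrays, with a point per array and a bar at the mean of 2. FOS reads 4899 and 4981 in low-Myc and 35.6 and 40.8 in high-Myc, whereas BATF and BATF3 are highest in high-Myc.

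FOS, the main partner of JUN in stimulated cells, was highest at 0 hours. Its deposited intensity was 4981 and 4899 in the low-Myc arrays, 3335 and 3497 in mid-Myc and 35.6 and 40.8 in high-Myc. No groups overlapped: both low-Myc arrays were highest, and the high-Myc arrays stood far below the rest. Per cell the difference of high-Myc from low-Myc was -5.76 log2 (SE 0.065), or 54.4-fold lower, and on the equal-median scale -6.88 (SE 0.070), or 118-fold lower. FOS had the lowest difference of all 12198 genes in that comparison on both scales. From mid-Myc to high-Myc it differed by -5.60 per cell and by -6.50 on the equal-median scale. In high-Myc its mean of 38.2 (SD 3.69, n = 2) lay under that of 7 of the 23 background control probe sets, while none was brighter than it in low-Myc or mid-Myc. The 24 hour value therefore cannot be separated from background, and the size of the fold depends on it.

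The first hour saw a much smaller drop in FOS. Mid-Myc differed from low-Myc by -0.38 log2 on the equal-median scale (SE 0.070, limma adjusted p = 0.00129) and by -0.17 per cell (SE 0.065, adjusted p = 0.0455), the latter a 1.12-fold change. The per-cell call was lost with any single low-Myc or mid-Myc array left out, where adjusted p ranged from 0.0962 to 0.236. The equal-median call was kept under every alternative run. After the curve, the 15 ERCC probe sets nearest to FOS in brightness still differed by a median of -0.035 between these groups.

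FOSB, a close relative of FOS that pairs with JUN proteins, moved up and then down. Its probe set read 89.1 and 80.7 in low-Myc, 112.1 and 104.1 in mid-Myc and 37.3 and 31.5 in high-Myc. Mid-Myc was highest in both arrays and high-Myc lowest, with no overlap. At 1 hour it rose by 0.70 per cell (SE 0.11, limma adjusted p = 0.000427) and by 0.50 on the equal-median scale (SE 0.12, adjusted p = 0.00554). The second call was lost without low-Myc replicate 2 (0.42, adjusted p = 0.0721) and in the values as deposited (0.35, adjusted p = 0.0573). At 24 hours it was lower than at 0 hours by 1.17 on the equal-median scale, a 2.25-fold fall (SE 0.12, adjusted p = 6.85e-07). Per cell that difference was only -0.30 (SE 0.11, limma adjusted p = 0.0254). The call was lost without low-Myc replicate 1 (-0.26, adjusted p = 0.119) or without high-Myc replicate 2 (-0.17, adjusted p = 0.202), and a single ERCC factor in place of the curve gave 0.049. After the curve, the 15 ERCC probe sets nearest to FOSB in brightness kept a median difference of -0.14 (SD 0.16), which has the same sign. From mid-Myc to high-Myc FOSB fell by 1.00 per cell, or 2.01-fold (SE 0.11, limma adjusted p = 1.41e-05), and by 1.67 on the equal-median scale (SE 0.12, adjusted p = 1.67e-08). In high-Myc 7 of the 23 background probe sets were brighter than its probe set, against 4 in low-Myc and 3 in mid-Myc.

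FOSL1 (FRA1) and FOSL2 (FRA2), FOS relatives that lack its strong activating region and are usually induced later, were dim. FOSL1 read 42.3 and 63.5 in low-Myc, 47.0 and 45.2 in mid-Myc and 34.5 and 35.7 in high-Myc. The low-Myc arrays lay on either side of the mid-Myc ones, and high-Myc was lowest. Per cell its differences from low-Myc were 0.25 at 24 hours (95% interval -0.17 to 0.68) and 0.15 at 1 hour (-0.28 to 0.57), neither called. Without low-Myc replicate 2 both were called, at 0.55 and 0.45 (limma adjusted p = 0.0106 and 0.0420). With 1 ERCC factor per array in place of the curve, FOSL1 was called higher at 24 hours by 0.79 against low-Myc and by 0.57 against mid-Myc (limma adjusted p = 0.00248 and 0.0160). FOSL1 fell by 0.42 at 24 hours on the equal-median scale (SE 0.17, limma adjusted p = 0.0456), a call that was lost when any array was left out except low-Myc replicate 1. Without low-Myc replicate 2, the brighter array, the difference was -0.14. The call was also lost with no filter, log2(value + 16), no variance trend or only the 2 groups compared. Quantile normalization and cyclic loess lost it as well. Over these settings the limma adjusted p ran from 0.0506 to 0.0662. FOSL2 read 31.0 and 39.5 in low-Myc, 36.7 and 29.7 in mid-Myc and 35.2 and 36.0 in high-Myc. Its 3 groups overlapped. Its deposited values differed by 0.023 log2 between high-Myc and low-Myc, and the ERCC curve added 0.71, which gave the per-cell rise of 0.73 (SE 0.18, limma adjusted p = 0.00273). Against mid-Myc the per-cell rise was 0.53 (SE 0.18, limma adjusted p = 0.0171), a call lost without mid-Myc replicate 2 (adjusted p = 0.103) or high-Myc replicate 2 (adjusted p = 0.0855). On the equal-median scale the difference was 0.16 (95% interval -0.21 to 0.54), not called. In all 3 groups 7 of the 23 background probe sets were brighter than the FOSL2 probe set.

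JUN, the founding AP-1 protein and the usual partner of FOS, read 247.7 and 242.0 in low-Myc, 255.4 and 273.1 in mid-Myc and 116.5 and 110.3 in high-Myc. The high-Myc arrays were lowest by a wide margin and the mid-Myc arrays lay just above low-Myc. At 1 hour it rose by 0.49 per cell (SE 0.067, limma adjusted p = 0.000161) and by 0.26 on the equal-median scale (SE 0.076, adjusted p = 0.0209). That call of JUN was lost without low-Myc replicate 1, low-Myc replicate 2 or mid-Myc replicate 2 (adjusted p from 0.0530 to 0.181), with the arrays centred on the tested genes, with quantile normalization, with cyclic loess and in the values as deposited, where adjusted p ran from 0.155 to 0.278 and the differences from 0.11 to 0.15. At 24 hours JUN was lower than at 0 hours by 0.97 on the equal-median scale, or 1.96-fold (SE 0.076, limma adjusted p = 5.87e-08). Per cell it differed by 0.11 (SE 0.067, 95% interval -0.040 to 0.26, limma adjusted p = 0.139), not called. ERCC probe sets of like brightness kept a median difference of -0.14 after the curve, which is opposite in sign. From mid-Myc to high-Myc JUN fell by 0.39 per cell (SE 0.067, limma adjusted p = 0.000372) and by 1.23 on the equal-median scale (SE 0.076, adjusted p = 5.21e-09).

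JUNB, which activates less than JUN and is often induced beside FOS, had the steepest rise at 1 hour among the 9 genes. It read 232.7 and 227.3 in low-Myc, 303.5 and 314.3 in mid-Myc and 129.7 and 122.6 in high-Myc, with no overlap between any groups. The rise at 1 hour was 0.81 per cell, or 1.76-fold (SE 0.062, limma adjusted p = 9.99e-06), and 0.58 on the equal-median scale, or 1.49-fold (SE 0.072, adjusted p = 9e-05). In order of rise on the equal-median scale it stood at place 264 of 12198 genes. At 24 hours JUNB was still higher per cell than at 0 hours, by 0.36 (SE 0.062, limma adjusted p = 0.000311), a rise smaller than that of the median gene. Against the array median it was lower by 0.73 (SE 0.072, limma adjusted p = 7.34e-07). From mid-Myc to high-Myc it fell by 0.45 per cell (adjusted p = 7.57e-05, limma) and by 1.30 on the equal-median scale, or 2.47-fold (adjusted p = 1.83e-09).

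JUND is the JUN protein usually present in resting cells. It read 80.3 and 81.7 in low-Myc, 79.4 and 76.2 in mid-Myc and 61.9 and 73.5 in high-Myc. The high-Myc arrays were lowest but spread the most. On the equal-median scale none of its 3 differences was called: -0.12 at 24 hours against 0 hours (95% interval -0.36 to 0.11), 0.091 at 1 hour against 0 hours (-0.15 to 0.33) and -0.22 at 24 hours against 1 hour (-0.45 to 0.022). With the arrays centred on the tested genes, both 24 hour differences were called lower, at -0.33 against 0 hours and -0.30 against 1 hour (limma adjusted p = 0.0219 and 0.0318). Without high-Myc replicate 2 the difference from 1 hour was -0.35 (limma adjusted p = 0.0219). Per cell it rose by 0.78 at 24 hours (SE 0.11, limma adjusted p = 8.45e-05), less than the median gene, and by 0.30 at 1 hour (SE 0.11, adjusted p = 0.0388), about as much as the median gene. The call at 1 hour was lost without any single low-Myc or mid-Myc array (adjusted p from 0.0660 to 0.147). The JUNB and JUND probe sets are of the array maker's type whose probes may also match other sequences.

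BATF and BATF3 moved together, and opposite to FOS. BATF, which with IRF4 drives effector and class-switch programmes in lymphocytes, read 83.8 and 74.2 in low-Myc, 76.1 and 79.3 in mid-Myc and 138.5 and 133.1 in high-Myc. The low-Myc and mid-Myc arrays overlapped, and both high-Myc arrays stood above them. At 24 hours it rose by 1.88 per cell, or 3.69-fold (SE 0.087, limma adjusted p = 1.16e-08), and by 0.92 on the equal-median scale, or 1.90-fold (SE 0.097, adjusted p = 1.24e-06). From mid-Myc to high-Myc it rose by 1.53 per cell (SE 0.087, limma adjusted p = 8.14e-08) and by 0.79 on the equal-median scale (SE 0.097, adjusted p = 5.66e-06). At 1 hour it was higher by 0.35 per cell (SE 0.087, limma adjusted p = 0.00617), close to the median gene, and by 0.13 on the equal-median scale (95% interval -0.080 to 0.34), not called.

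BATF3, known for its role in the development of cross-presenting dendritic cells, read 52.9 and 47.5 in low-Myc, 41.8 and 45.7 in mid-Myc and 108.9 and 108.0 in high-Myc. The high-Myc arrays were highest with no overlap, and the mid-Myc arrays lowest. It rose by 2.09 per cell at 24 hours, or 4.24-fold (SE 0.11, limma adjusted p = 2.74e-08), and by 1.25 on the equal-median scale, or 2.38-fold (SE 0.12, adjusted p = 3.47e-07). From mid-Myc to high-Myc it rose by 1.94 per cell (SE 0.11, limma adjusted p = 7.06e-08) and by 1.30 on the equal-median scale (SE 0.12, adjusted p = 2.35e-07). At 1 hour neither its per-cell difference of 0.15 (95% interval -0.094 to 0.39) nor its equal-median difference of -0.047 (-0.30 to 0.20) was called. The low-Myc and mid-Myc values of BATF3 were dim, with 5 of the 23 background probe sets brighter in both groups and 3 in high-Myc. For BATF it was 4, 4 and 3. In order of rise at 24 hours on the equal-median scale, BATF3 stood at place 856 and BATF at place 1527 of 12198 genes. All 8 differences of these 2 genes at 24 hours, against either earlier group and on either scale, stayed called with the same sign when any single array was left out.

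**Figure D2:**
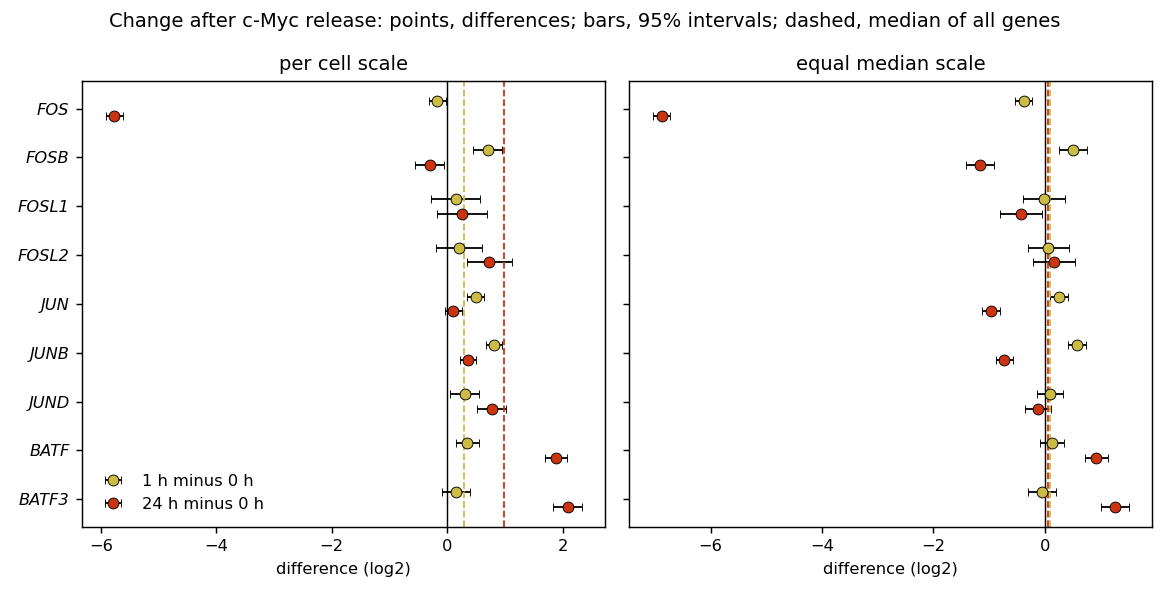
Differences from low-Myc at 1 hour and at 24 hours for the 9 AP-1 genes, in log2, with the per-cell scale on the left and the equal-median scale on the right, with 95% intervals as bars and the median of all tested genes as dashed lines. BATF and BATF3 lie to the right of the dashed 24 hour line on both scales, FOS lies far to the left, and JUN and JUNB lie between 0 and the line per cell but below 0 on the equal-median scale.

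Other probe sets were compared for the 3 genes with more than 1 above the filter. They were fitted over all 29576 human probe sets above it. All 4 FOS probe sets were lower at 24 hours than at 0 hours, with differences of -5.76 to -2.82 log2 per cell and of -6.88 to -3.96 on the equal-median scale. The one with the smallest fall read 1199 and 1208 in low-Myc, 646.4 and 653.5 in mid-Myc and 74.9 and 66.1 in high-Myc. At 1 hour the FOS probe sets other than the one used fell further than it did, down to -0.50 per cell and to -0.74 against the array median, and all 4 were called on both scales. The 4 JUN probe sets were all called higher at 1 hour, by 0.49 to 0.74 per cell and by 0.26 to 0.57 on the equal-median scale. At 24 hours against 0 hours their per-cell differences were 0.11 to 0.42, with the 3 not used called higher. On the equal-median scale they were -0.97 to -0.29, with 2 of 4 called lower.

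FOSB's probe sets disagreed. The second one, whose probes may match other sequences, read 67.8 and 70.6 in low-Myc, 64.6 and 58.8 in mid-Myc and 66.8 and 66.3 in high-Myc, so it neither rose at 1 hour nor fell at 24 hours. Its high-Myc difference from low-Myc was 0.94 per cell (SE 0.10, limma adjusted p = 6.87e-06 over probe sets), opposite in sign to the probe set used, and 0.084 on the equal-median scale (SE 0.10, adjusted p = 0.513). Its mid-Myc difference from low-Myc was 0.18 per cell (adjusted p = 0.151, limma) and -0.017 on the equal-median scale (adjusted p = 0.932). It was called higher per cell in high-Myc than in mid-Myc, by 0.75 (SE 0.10, limma adjusted p = 5.12e-05), where the probe set used fell. With the mean of both probe sets, FOSB was called higher per cell at 24 hours against 0 hours, by 0.32 (SE 0.077, limma adjusted p = 0.00278), and its fall from mid-Myc to high-Myc was no longer called (-0.13, adjusted p = 0.148). The direction given for FOSB therefore rests on the choice of probe set. FOSL1 had 6 probe sets and FOSL2 had 5, with 1 of each above the filter. The FOSL2 probe sets under the filter, which were not tested, went against the one used per cell from mid-Myc to high-Myc only. There they differed by -0.84 to -0.28, where the one used rose by 0.53. Against 0 hours they had its sign per cell. At 1 hour they were higher than low-Myc by 0.35 to 0.98 per cell, against 0.20. At 24 hours against 0 hours they differed by 0.013 to 0.60 per cell, against 0.73. JUNB, JUND, BATF and BATF3 had 1 each, so nothing on this array checks them.

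**Figure D3:**
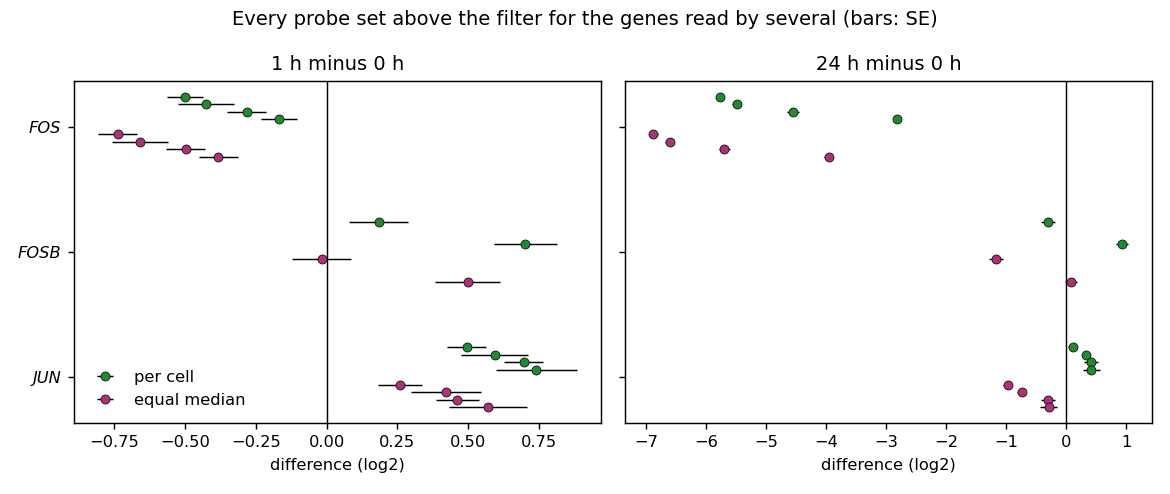
Differences from low-Myc in log2, at 1 hour on the left and at 24 hours on the right, for every probe set above the filter of FOS, FOSB and JUN, with bars of 1 SE. The 4 FOS points of each colour lie below 0 at both times, the 4 JUN points lie above 0 at 1 hour, and the 2 FOSB points lie on opposite sides of 0 per cell at 24 hours.

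The genes nearest in pattern were found by the root mean square difference over the 6 arrays between per-cell log2 profiles centred on their means, for the 4 members with the widest range. No gene came close to FOS: the nearest were RGS2, a brake on G-protein signalling (0.79 log2), EGR1, an immediate early zinc finger factor (0.80), and NR4A3, an orphan nuclear receptor (0.82). Of these, EGR1 was also lower at 1 hour, by 0.44 per cell, while RGS2 and NR4A3 were higher there by 1.70 and 1.09. All 3 were lower at 24 hours, by 4.46 (RGS2), 4.22 (EGR1) and 3.83 (NR4A3). BATF had near matches in DAP3, a mitochondrial ribosome protein (0.015), ANAPC5, a subunit of the anaphase-promoting complex (0.024), and SUCLG1, a citric acid cycle enzyme subunit (0.031). The nearest to BATF3 were RASA4, which switches off RAS (0.026), ZW10, a kinetochore protein (0.031), and PRELID3A (0.033). The nearest to FOSB were ACY3, an aminoacylase (0.056), MGAT4A, which branches sugar chains on proteins (0.065), and CLIC3, a chloride channel family protein (0.080).

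The genes around AP-1 were described by 6 lists, also chosen with earlier results of these data known. Their genes were counted on the equal-median scale unless stated. At 1 hour 5 of the 6 had members called higher and none lower, and at 24 hours 5 of the 6 had more members lower than higher. The exceptions were the other serum-response genes at 1 hour and the turnover genes at 24 hours. The shares of all genes given above (25.7% higher and 3.39% lower at 1 hour, 37.7% and 26% at 24 hours) are the background for these counts. Both statements hold for the equal-median scale. Per cell at 24 hours, only the other serum-response genes had more members lower than higher. Under the 4 other scalings without ERCC (arrays centred on tested genes, quantile normalization, cyclic loess and the values as deposited), the bZIP, kinase and turnover lists also had members lower at 1 hour, and the turnover list had 6 higher and 7 lower at 24 hours.

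Of 21 tested bZIP partners, factors that can pair with FOS or JUN proteins or share their sites, 14 were higher and 0 lower at 1 hour, with a median difference of 0.28. The 4 other scalings gave 7 to 8 higher and 1 lower, with medians of 0.13 to 0.16. CREM, a cAMP-responsive factor, went from a mean of 593.2 to 2205 intensity, a rise of 2.05 (SE 0.076). BACH1, a repressor of oxidative stress genes, rose by 1.36 (SE 0.081), the stress factor ATF3 by 1.01 (SE 0.076) and the small MAF protein MAFF by 0.92 (SE 0.14). At 24 hours 4 were higher and 12 lower than at 0 hours, with a median of -0.26. BACH2, a B-cell repressor, fell by 1.03 (SE 0.084) and DDIT3, a stress-induced partner of C/EBP proteins, by 0.96 (SE 0.11), while CEBPB rose by 0.82 (SE 0.080). Per cell 18 of the 21 were higher at 24 hours and 0 lower, against 91% and 2.47% of all genes. On that scale BACH2 and DDIT3 differed by only -0.052 (adjusted p = 0.546, limma) and -0.048 (adjusted p = 0.707).

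Of 27 kinases and factors that drive FOS and JUN, 9 were higher and 0 lower at 1 hour, with a median of 0.15. ELK4, which binds the FOS promoter with serum response factor, rose by 0.68 (SE 0.12), serum response factor itself (SRF) by 0.38 (SE 0.069) and ELK1 by 0.36 (SE 0.074). At 24 hours 4 were higher and 13 lower, with a median of -0.14. The kinase MAP2K6, which activates p38, fell by 1.17 (SE 0.081) and MEF2C, which acts on the JUN promoter, by 1.04 (SE 0.048), while ELK1 rose by 0.65 (SE 0.074). Per cell 25 of the 27 were higher at 24 hours and 0 lower, against 91% and 2.47% of all genes, with a median of 0.87. There MAP2K6 and MEF2C differed by only -0.11 (limma adjusted p = 0.214) and -0.029 (adjusted p = 0.451). The median at 1 hour was -0.0024 in the values as deposited, with 4 higher and 5 lower, so that direction depends on the scaling. Of 15 genes for the turnover of AP-1 RNA and protein, 4 were higher and 0 lower at 1 hour, and 6 higher and 4 lower at 24 hours. Per cell 14 of the 15 were higher at 24 hours and 1 lower, with a median of 1.06. ZFP36, which binds AU-rich elements of short-lived RNAs such as FOS and sends them to decay, fell by 1.21 at 24 hours (SE 0.078). Its per-cell difference was -0.27 (SE 0.082). KHSRP and ELAVL1, also binders of AU-rich elements, moved the opposite way on the equal-median scale. KHSRP, which promotes decay, rose by 1.19 (SE 0.049), and ELAVL1, which stabilises such RNAs, by 1.01 (SE 0.052). ZFP36L2 of the same list went from a mean of 1114 intensity at 0 hours to 954.6 at 24 hours. The median of this list at 1 hour was 0.11, and it was below 0 under each of the 4 other scalings without ERCC, down to -0.078 with quantile normalization.

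Of 19 other serum-response genes, induced by the same signals as FOS, 16 were lower and 1 higher at 24 hours, with a median of -1.21. EGR1 went from a mean of 2094 intensity to 46.4, a difference of -5.36 (SE 0.073), and the nuclear receptor NR4A1 from 2023 to 80.0, a difference of -4.52 (SE 0.053). The phosphatases DUSP5 and DUSP1, which switch off MAP kinases, fell by 3.03 (SE 0.060) and 2.90 (SE 0.076). Per cell 10 of the 19 were lower and 8 higher, against 2.47% and 91% of all genes. Their median was -0.27, or 0.011 with a single ERCC factor. At 1 hour 13 were higher and 2 lower on the equal-median scale, with a median of 0.32, and 9 were higher and 3 lower under each of the 4 other scalings. EGR3 rose by 1.24 (SE 0.096), DUSP5 by 1.04 (SE 0.060), NR4A1 by 1.01 (SE 0.053) and the kinase scaffold TRIB1 by 0.90 (SE 0.058). 

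Of 19 often cited AP-1 targets tested, 11 were higher and 0 lower at 1 hour, with a median of 0.22. The 4 other scalings gave 5 to 7 higher, with medians of 0.070 to 0.11, and 1 lower in the values as deposited. BCL2L11, which encodes the pro-apoptotic protein BIM, rose by 2.42 (SE 0.066) and the chemokine gene CXCL8 by 1.00 (SE 0.093). At 24 hours 4 were higher and 11 lower, with a median of -0.37. The chemokine gene CCL3 fell by 2.80 (SE 0.087) and HMOX1, a haem-degrading enzyme, by 1.34 (SE 0.096), whereas thioredoxin (TXN) rose by 1.54 (SE 0.040) and GCLM, a subunit of the enzyme that starts glutathione synthesis, by 1.17 (SE 0.079). Per cell 14 of the 19 targets were higher at 24 hours and 2 lower, against 91% and 2.47% of all genes, with a median of 0.60. CCL3 and HMOX1 were lower per cell too, at -1.66 and -0.29. Of 15 BATF and IRF partners and targets in lymphocytes, 7 were higher and 0 lower at 1 hour, and 2 higher and 8 lower at 24 hours, with medians of 0.13 and -0.38. Under each of the 4 other scalings 4 were higher at 1 hour, with a median between -0.020 (as deposited) and 0.061, and 0 were higher and 10 to 12 lower at 24 hours. IRF4, the partner of BATF, rose by 0.75 at 1 hour (SE 0.059), BCL6, a repressor of plasma cell fate, by 1.18 (SE 0.13) and PRDM1, which drives that fate, by 0.62 (SE 0.086). At 24 hours the list's largest changes were falls, in BACH2, CD86, a costimulatory ligand (-0.64, SE 0.064), TBX21 (-0.63, SE 0.15) and SPI1 (-0.51, SE 0.15). TBX21 and SPI1 were dim at 24 hours, at means of 35.7 and 30.2 intensity, near the filter of 33.8. The rise of BATF and BATF3 at 24 hours thus ran against the median of this list on the equal-median scale. Per cell 12 of the 15 were higher at 24 hours and 0 lower, against 91% and 2.47% of all genes. Their median was 0.67, under the 0.98 of all genes. CD86 was higher per cell by 0.50 (limma adjusted p = 7.8e-06), while BACH2 (-0.052), TBX21 (0.083) and SPI1 (0.12) were not called.

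**Figure D4:**
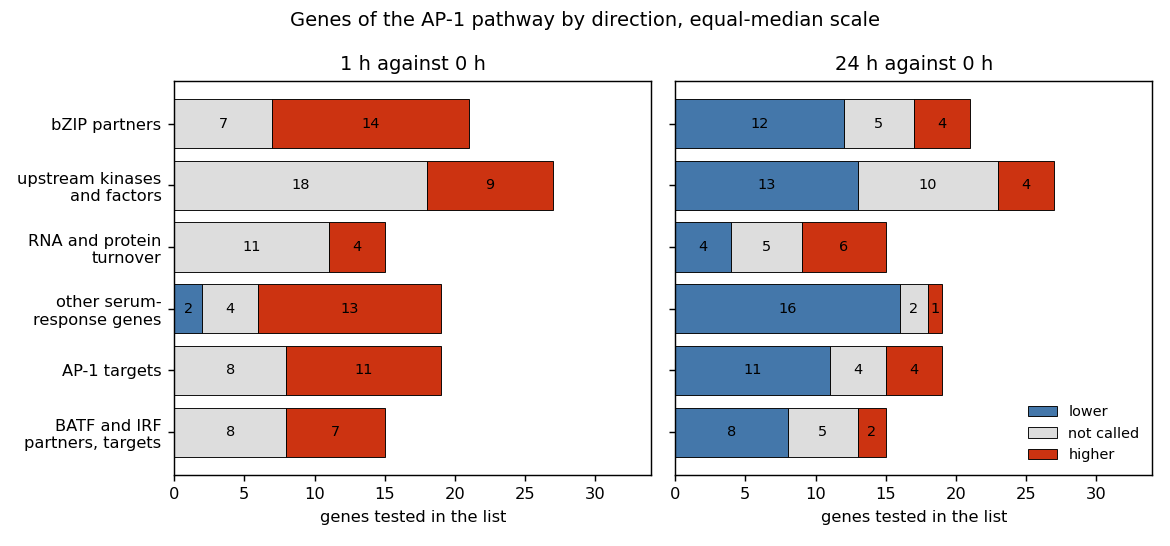
Number of tested genes called lower, not called and called higher in each of the 6 lists around AP-1, on the equal-median scale, at 1 hour (left) and 24 hours (right) against 0 hours. At 1 hour the bars are mostly grey and red, with 13 of 19 serum-response genes higher, and at 24 hours 16 of those 19 are lower.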

How the data were processed

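RNA from 6 samples of P493-6 cells (Trizol, 3' IVT Express, biotin label) was read on 1-colour Affymetrix arrays. The deposited values are linear probe set intensities that the authors summarised by MAS5 (per the submitters' processing notes); the sources used here do not give its version or target. There are no detection calls. Of 49495 probe sets 49293 were human and 45278 carried 1 gene symbol. The number of arrays limits the precision.

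On log2 of the values, the per-cell scale subtracts a robust loess curve (span 0.7, degree 1) through 100 ERCC probe sets, read at each probe set's mean over the arrays. The equal-median scale subtracts each array's human median. The filter was the 40th percentile of mean log2. Differences were tested in 1 fit over 6 arrays with limma 3.58.1 (R 4.3.3; lmFit, eBayes, variance trend), two-sided, Benjamini-Hochberg over 12198 genes, called at 0.05. An exact permutation test of 2 against 2 cannot go below p = 0.333. The steps were tested on simulated data. Members and lists were chosen with earlier results of these data known. Named list genes are among the 4 with the largest equal-median change. Motifs were searched in RefSeq promoters. Alternatives covered filter, probe set, pseudocount, variance trend, groups in the fit, replicate block, left-out arrays and scalings.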

Additional observations from a re-analysis of the deposited data

How the results depend on the processing

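The 54 member differences were recomputed under alternatives that gave 855 values: 783 kept direction and side of the threshold, 39 lost a call, 15 gained one and 18 changed sign. Only 2 sign changes touched a called difference, both of FOSB per cell at 24 hours against 0 hours: 0.32 with the mean of all probe sets and 0.049 with 1 ERCC factor per array. The others were in uncalled differences. On the equal-median scale, centring on tested genes gave FOSL2 -0.042 at 24 hours and -0.052 at 1 hour, and JUND -0.024 at 1 hour; it also made JUND called lower at 24 hours against both earlier groups (-0.33 and -0.30). The values as deposited gave, at 1 hour, FOSL2 -0.087, JUND -0.059 and BATF -0.021. With 1 array left out, per-cell FOSL1 ran from -0.034 to 0.55 at 24 hours and from -0.16 to 0.45 at 1 hour. Likewise on the equal-median scale, FOSL2 ran from -0.0062 to 0.33 at 24 hours, from -0.11 to 0.23 at 1 hour and from -0.037 to 0.23 between them, FOSL1 from -0.30 to 0.27 and BATF3 from -0.13 to 0.038 at 1 hour, and JUND from -0.26 to 0.010 at 24 hours.

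Counts of members, here with FOS included, moved as follows. They show only how calls moved, since shares of all genes under each alternative are not given beside them. In the main run 91% of all genes were higher and 2.47% lower per cell at 24 hours against 0 hours. A 60th percentile filter left 5 members. Of these, high-Myc against low-Myc called 3 higher and 1 lower per cell, the latter being FOS. On the equal-median scale it called 1 higher and 3 lower. High-Myc against mid-Myc called 2 higher per cell and 1 higher on the equal-median scale. The count lower per cell at 24 hours was 1 with the mean of probe sets, a span of 0.4 or 1 ERCC factor, and 1 to 2 with an array left out. The count lower per cell at 1 hour was 0 with no variance trend, a span of 0.4 or 1 ERCC factor, and 0 to 1 with an array left out; the gene lost was FOS. The count higher at 1 hour on the equal-median scale was 1 as deposited and 1 to 3 with an array left out. JUN at 24 hours became called higher per cell with the mean of probe sets (0.32), a span of 0.4 (0.16) and 1 ERCC factor (0.25).

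Samples with the same replicate number did not deviate together (correlations of -0.0034 to 0.0022), and the number as a block moved 1 call: FOSL1 in high-Myc against mid-Myc on the equal-median scale became lower (-0.41, adjusted p = 0.0296). Reading the ERCC curve at each array's own level, added after seeing the data, gave FOS -6.12 per cell at 24 hours. Of all called genes, those higher on the equal-median scale made up 59.2% at 24 hours and 88.3% at 1 hour, against 41.5% and 58.6% centred on tested genes and 46.9% and 43.2% as deposited. The causes of these shifts were not tested. Each of the 9 genes had at least 3 of 23 background probe sets brighter than it at 24 hours, which limits their folds.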
